A study of Mus musculus with 12 samples.

Results

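The endothelin system genes described here are 5 of the 55487 genes in the deposited kidney table, taken by symbol: the ligand genes Edn1 and Edn3, the converting enzyme gene Ece1 and the receptor genes Ednra and Ednrb. All 5 passed the filter on low counts, and each was counted in all 12 libraries. The libraries were made from messenger RNA of kidneys of 30-week-old male mice of the B6 background with X-linked Alport syndrome, an inherited disease of the type IV collagen network of the glomerular basement membrane. 6 libraries from mice fed 500 ppm of fisetin, a plant flavonol, were set against 6 from mice on the control diet, and each of the 2 labelled batches held 3 of each. Both diet groups carry the disease, the labels naming the gene Col4a5, and no healthy kidney was analysed here. The labels give the genotype as HET although the mice are male, so no allele status is used. Whether the libraries are from separate animals is not in the labels either, and p-values cover no more than the spread among these libraries, which may be technical.

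Endothelins are short peptides that act close to where they are released. They are made as long precursors, cut to big endothelins by furin-type proteases and then to the active peptide by endothelin converting enzyme, the product of Ece1. The ETA receptor, from Ednra, sits mainly on smooth muscle, mesangial cells and pericytes and drives contraction and matrix production. The ETB receptor, from Ednrb, is found on endothelium and collecting duct, where it releases nitric oxide, clears endothelin from the blood and lowers sodium and water reabsorption. The collecting duct is among the strongest sources of endothelin-1 in the body, and blockers of ETA are used against proteinuric kidney disease.

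The 63 bases that encode the mature peptides are shown because the ligands differ there in what the receptors see, ETA preferring endothelin-1 over endothelin-3 and ETB binding both alike. Each stretch lies in a single exon, the second of 5, of the GENCODE M21 transcripts Edn1-201 (chr13:42303649-42303711, plus strand, GRCm38) and Edn3-201 (chr2:174761749-174761811, plus strand). The capitals mark the 4 cysteine codons, whose residues form the disulfide bridges that hold an endothelin in shape:
Edn1: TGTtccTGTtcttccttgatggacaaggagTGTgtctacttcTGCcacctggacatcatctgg
Edn3: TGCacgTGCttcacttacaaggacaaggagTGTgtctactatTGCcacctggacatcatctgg
The stretches had 50 of 63 bases in common, or 79.4%. Both were located by a fixed spacing of the 4 cysteines, so these codons lie at the same places by construction. Over whole transcripts the longest identical run between Edn1 and Edn3 was 21 bases, and over the 10 pairs of the 5 genes the longest such run was 12 to 21 bases, on either strand.

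Edn1 lies on chromosome 13 (42301476 to 42307990, plus strand), Edn3 on chromosome 2 (174760619 to 174784042, plus), Ece1 on chromosome 4 (137862237 to 137965229, plus), Ednra on chromosome 8 (77663031 to 77724464, minus) and Ednrb on chromosome 14 (103814625 to 103844402, minus), all on GRCm38. RefSeq lists 4 start sites for Ece1 and 1 for each of the others, and the deposited table sums them per gene. Genes on the opposite strand overlap Edn1, Ednra and Ece1. They held 0, 15 and 21 counts over all 12 libraries, far below the 106, 175 and 1476 counts of the lowest library of Edn1, Ednra and Ece1.

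Total counts per library were 16310214 to 24451821 with fisetin and 18638748 to 22396857 with the control diet. Col4a5 was at 19.9 to 24.8 CPM (counts scaled to a common library size) in all libraries, and Ddx3y, a Y-linked gene, had 924 to 1341 counts. Cell type markers differed between kidneys. Immune markers (none at 0) had 13 of 13 fold changes positive (50.2% of all genes), with a median of 0.61 log2. Of these markers 4 were higher with an unadjusted edgeR p under 0.05 (8.23% of all genes), and 0 passed by edgeR or DESeq2. They summed to 342 to 9539 CPM with fisetin against 377 to 5337 CPM with the control diet. Most of the sum in the highest library was the immunoglobulin gene Ighm, at 61.3 to 8846 CPM in fisetin kidneys and 26.6 to 4838 CPM in control kidneys. The leukocyte gene Ptprc was at 85.9 to 256.9 CPM in fisetin kidneys and 71.4 to 153.0 CPM in control kidneys. Proximal tubule markers (none at 0) had 10 of 11 fold changes negative (49.8% of all genes), with a median of -0.35 log2. Of these markers 2 were lower with an unadjusted edgeR p under 0.05 (6.34% of all genes), and 0 passed by either test. They summed to 8725 to 23859 CPM against 13237 to 26185 CPM. Among fisetin libraries, fisetin 6 had the lowest immune and the highest proximal tubule sum, both close to those of some control libraries, and fisetin 5 had the highest immune and the lowest proximal tubule sum of all 12. No gene passed the threshold for diet over all 17890 genes tested with edgeR's quasi-likelihood test, and 70 did without fisetin 6. Results are therefore also given without that library, a choice that rests on this count.

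The first question was how much of each message these kidneys held. Per length, Ece1 was the most abundant and Edn3 the least, with Ednrb, Edn1 and Ednra between them. In FPKM (fragments scaled for transcript length and library depth), Ece1 averaged 29.1 ± 2.55 with fisetin and 29.3 ± 2.39 in control kidneys (SD, n = 6 each), above a median of 84.6% of the genes detected in a library. Ednrb, the endothelial and collecting duct receptor, averaged 9.64 ± 1.09 FPKM with fisetin and 8.77 ± 0.91 FPKM with the control diet. Edn1, the main renal ligand, averaged 5.35 ± 1.27 FPKM with fisetin and 4.88 ± 0.83 FPKM with the control diet. These were middling to high levels for the tissue, with Edn1 above a median of 53.7% of detected genes. Ednra, the contractile receptor, averaged 3.92 ± 0.59 FPKM with fisetin and 3.40 ± 0.50 FPKM with the control diet. Edn3, the ligand best known for neural crest development, averaged 2.04 ± 0.21 FPKM with fisetin and 2.47 ± 0.40 FPKM with the control diet.

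The FPKM ranges of Ece1 and Ednrb, and of Ednrb and Edn1, did not overlap over the 12 libraries. Those of Edn1 and Ednra overlapped, and Edn1 was the higher of the pair in 11 of 12 libraries, the exception being fisetin 6. Those of Ednra and Edn3 overlapped too, although Ednra was the higher in each of the 12. The order of the means was the same in TPM (a share of all transcripts). It was also the same in TPM rescaled without the 2 genes of the 7SL RNA, which held 40.3% to 53.1% of all TPM. The ranges of Ednrb and Edn1 overlapped on both of these scales. In TPM Ednrb was as low as 3.42 and Edn1 as high as 4.35, and in rescaled TPM these were 7.29 and 7.33.

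**Figure D1:**
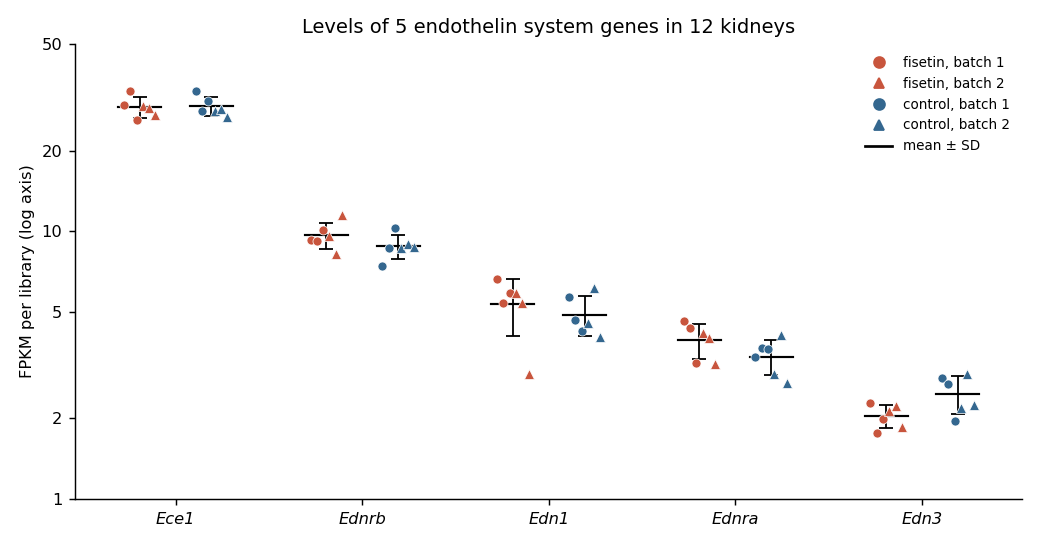
FPKM of each gene in each of the 12 libraries, on a log axis, with fisetin (red) left of control diet (blue) and the batch shown by the symbol; bars are the mean ± SD of 6 libraries. Ece1 lies near 29 FPKM in both diets and Edn3 near 2, and the fisetin 6 library lies lowest for Edn1, at 2.92.

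Edn2, the third ligand gene, was all but undetected, with 1 count in 1 library of the 12, from the control diet. A floor of 3 counts per library corresponds to 0.123 to 0.184 CPM, and a level under that could go uncounted in a library at this depth. The other converting enzyme gene, Ece2, was at 0.35 ± 0.10 CPM with fisetin and 0.61 ± 0.23 CPM in control kidneys (SD, n = 6 each), and did not pass the filter on low counts. Kel, whose product cleaves big endothelin-3, reached at most 0.27 CPM, and Cma1, of a mast cell chymase that can also process big endothelin-1, at most 0.58 CPM. Among genes of processing and breakdown these kidneys thus held mainly Ece1, the proprotein convertases and Mme, which encodes neprilysin, an endothelin-degrading protease.

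The second question was whether fisetin changed these messages. None of the 5 genes passed the threshold of an adjusted p under 0.05 by edgeR's quasi-likelihood test with batch as a covariate, against 0.0% of all tested genes. None passed by DESeq2, which called 0.861% of all genes, or by limma-voom with sample quality weights, which called 13.4%. Before adjustment, edgeR gave a p under 0.05 for Edn3, 1 of 5 genes, against 14.6% of all genes, 8.23% on the higher and 6.34% on the lower side. DESeq2 gave an unadjusted p under 0.05 for Ece1 as well as for Edn3 (0.0464 and 0.0163). The share of all genes under that unadjusted DESeq2 p was not counted, and the 14.6% is of edgeR alone. Fold changes were positive for Edn1, Ednra and Ednrb, as for 50.2% of all genes, and negative for Edn3 and Ece1, as for 49.8%, with a median of 0.07 log2 against 0.00 log2 over all genes. CPM of the diet groups overlapped for all 5, and for all but 0.894% of tested genes. In bulk kidney, fewer cells of a type and less message per cell cannot be told apart.

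Edn3 had the largest difference of the 5 and was lower with fisetin. It ranged from 4.01 to 5.63 CPM with a median of 4.99 in fisetin kidneys, and from 5.07 to 7.63 CPM with a median of 5.82 in control kidneys. All 6 fisetin libraries lay below the control mean and 3 below the lowest control, while 4 control libraries lay above the highest fisetin value. The log2 fold change was -0.33 ± 0.12 (SE), a ratio of 0.798 with a 95% interval of 0.663 to 0.961 before adjustment. The adjusted p was 0.303 by edgeR, 0.203 by DESeq2 and 0.0627 by limma-voom, and the p of Edn3 ranked 1236 among 17890 genes. In batch 1 the log2 fold change was -0.34 ± 0.19 (SE), and in batch 2 it was -0.30 ± 0.17. Leaving out each library in turn gave -0.38 to -0.25, with adjusted p between 0.144 and 0.529 by edgeR. Without fisetin 6 it was -0.35 ± 0.13 (adjusted p = 0.144 by edgeR). On log2(FPKM + 1), a scale that understates changes of low genes, the difference was -0.18 ± 0.09 (adjusted p = 0.414 by limma). On log2(FPKM + 0.1) it was -0.25 ± 0.13 (adjusted p = 0.417 by limma). With total count scaling it was -0.29 ± 0.14 (adjusted p = 0.344 by edgeR). Why the size differed between these settings was not tested.

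The difference in Edn1 was smaller than its spread. It ranged from 5.78 to 11.6 CPM with a median of 10.01 in fisetin kidneys, and from 7.82 to 10.8 CPM with a median of 8.77 in control kidneys. The fisetin group held both the highest and the lowest of the 12 values, and 5 of its 6 libraries lay above the control mean. The log2 fold change was 0.07 ± 0.15 (SE; adjusted p = 0.817 by edgeR), with a 95% interval of -0.25 to 0.40, so a rise of 1.32-fold or a fall to 0.842 of the control level lay at its ends. The low value belonged to fisetin 6, and without it the log2 fold change was 0.19 ± 0.11 (adjusted p = 0.281 by edgeR). Leaving out each of the 12 libraries in turn gave 0.01 (without fisetin 4) to 0.19, with 0.02 without control 3, 0.03 without fisetin 1 and 0.16 without control 5. Values for the other libraries lay between 0.04 and 0.10, and limma-voom with quality weights gave 0.19. The difference was 0.24 ± 0.14 in batch 1 and -0.09 ± 0.25 in batch 2, which holds fisetin 6. The test of that contrast between batches gave -0.34 ± 0.29 (adjusted p = 1.0 by edgeR).

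Ece1 had the smallest spread of the 5 genes relative to its mean. It ranged from 85.7 to 106.5 CPM with a median of 96.8 in fisetin kidneys, and from 99.7 to 108.4 CPM with a median of 106.1 in control kidneys. Of the 6 fisetin libraries, 4 lay below the lowest control library, and fisetin 2 and fisetin 6 lay among the controls. The log2 fold change was -0.11 ± 0.05 (SE), a ratio of 0.925 with a 95% interval of 0.854 to 1.003 (adjusted p = 0.350 by edgeR and 0.290 by DESeq2). It was -0.09 ± 0.07 in batch 1 and -0.13 ± 0.09 in batch 2. Without fisetin 6 it was -0.14 ± 0.05 (adjusted p = 0.136 by edgeR), the largest of the values with 1 library left out. Leaving out each library in turn gave -0.14 to -0.08. The smallest was without fisetin 5, the library with the lowest Ece1, at -0.08 ± 0.04 (adjusted p = 0.610 by edgeR). The size depended on the unit, since the fold change was -0.01 ± 0.07 on log2(FPKM + 1) and -0.07 ± 0.05 with total count scaling.

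The receptor genes both had slightly higher means with fisetin and neither passed. Ednra ranged from 10.53 to 14.4 CPM with a median of 12.8 in fisetin kidneys, and from 9.37 to 12.9 CPM with a median of 11.4 in control kidneys. Of the fisetin libraries 3 lay above the highest control, and 2 controls lay below the lowest fisetin library. Its log2 fold change was 0.16 ± 0.10 (SE, adjusted p = 0.434 by edgeR), with a 95% interval of -0.06 to 0.37, and 0.14 ± 0.13 and 0.18 ± 0.16 in batches 1 and 2. Without fisetin 6 it was 0.18 ± 0.10 (adjusted p = 0.287 by edgeR), and leaving out each library in turn gave 0.11 to 0.22. Ednrb ranged from 25.7 to 40.4 CPM with a median of 30.5 in fisetin kidneys, and from 24.96 to 34.4 CPM with a median of 28.8 in control kidneys. The groups overlapped almost wholly, with the fisetin 6 library alone above the highest control. Its log2 fold change was 0.12 ± 0.11 (SE; adjusted p = 0.582 by edgeR), with a 95% interval of -0.11 to 0.35, and 0.03 ± 0.09 without fisetin 6. It was 0.18 ± 0.10 without control 3 and 0.18 ± 0.09 without fisetin 5, and 0.04 ± 0.08 by limma-voom with quality weights.

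**Figure D2:**
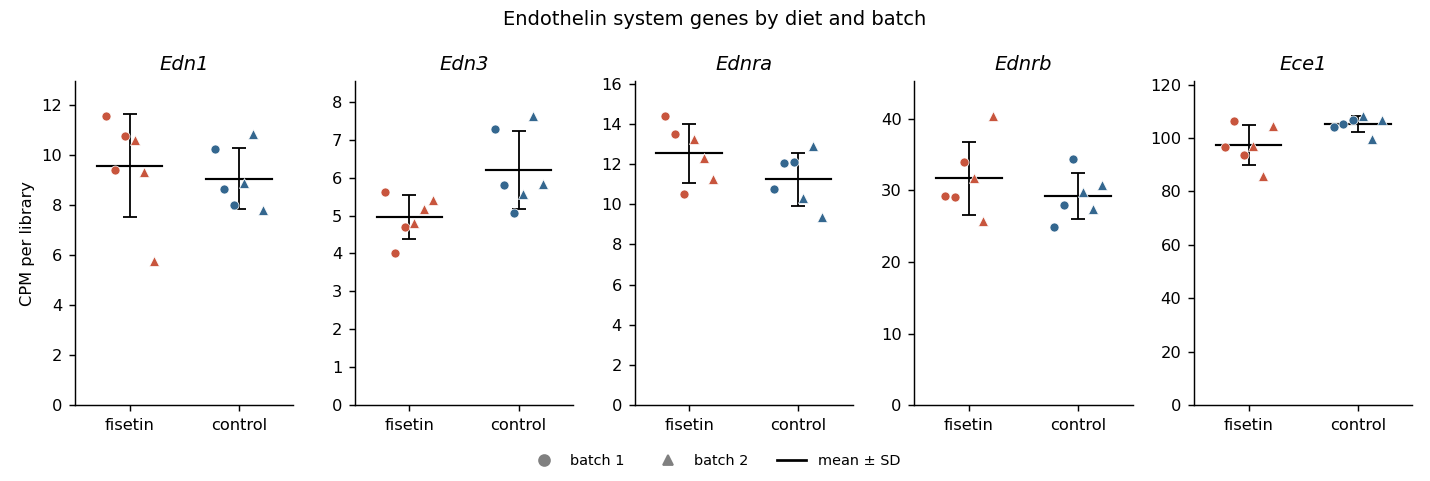
CPM of each gene in each library, on axes from 0, with fisetin (red) left of control diet (blue), circles for batch 1 and triangles for batch 2, and the mean ± SD of 6 libraries. The groups overlap for all 5 genes; Edn3 has 6 of 6 fisetin libraries below the control mean, and the library with the lowest Edn1, at 5.78, also has the highest Ednrb, at 40.4.

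**Figure D3:**
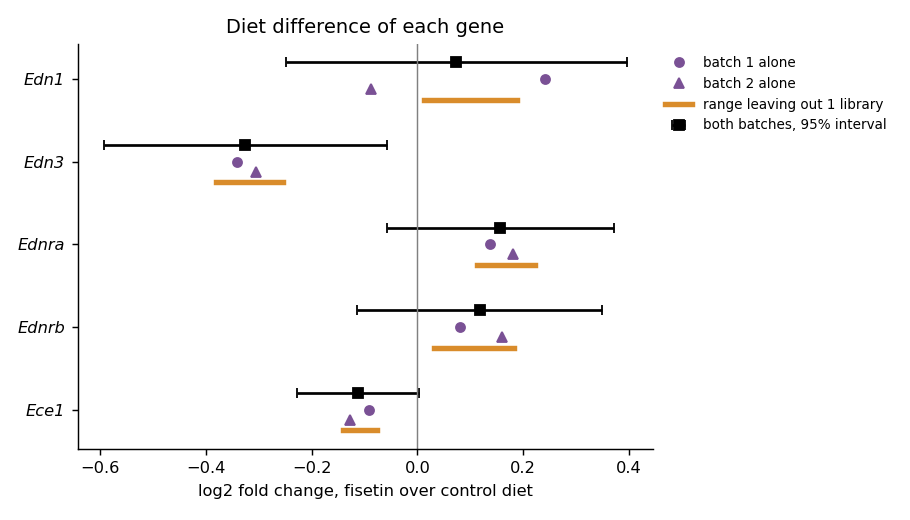
Log2 fold change of each gene, fisetin over control diet, with the 95% interval of the edgeR fit over both batches (black), the value in each batch alone (purple) and the range when each library is left out in turn (orange). The interval for Edn3 runs from -0.59 to -0.06 and those of the other 4 genes span 0.

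Neither batch nor its interaction with diet passed for any of the 5 genes. Batch 2 over batch 1 gave log2 fold changes between -0.13 ± 0.15 (SE) for Edn1 and 0.09 ± 0.12 for Edn3, and 0 of 5 passed, against 0.0% of all genes by edgeR or DESeq2 (before adjustment 604 genes, 3.38%, were under 0.05, of which 1.44% were higher in batch 2 and 1.94% lower, as shares of all genes). The difference of the diet effect between batches also passed for 0 of 5, against 0.0% of all genes by edgeR and 0.00559% by DESeq2 (before adjustment 376 genes, 2.1%, were under 0.05, 1.11% on the positive and 0.989% on the negative side). The spread beyond counting noise between libraries of 1 group was estimated by edgeR as a coefficient of variation. It was 18.5% for Edn1, 15.2% for Edn3, 13.7% for Ednrb, 13.0% for Ednra and 8.19% for Ece1, against a median of 13.1% over all genes. By this estimate Edn1 was the most variable of the 5, with the low fisetin 6 value included, and Ece1 the least. In control kidneys alone Edn3 (6.20 ± 1.02 CPM, SD, n = 6) varied more for its mean than Edn1 (9.07 ± 1.22 CPM).

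The balance within ligands and within receptors is given in FPKM as a description, with no test. Edn1 made up 61.1% to 75.2% of the sum of Edn1 and Edn3 in fisetin kidneys, with a median of 73.9%, and 63.5% to 68.4% in control kidneys, with a median of 67.1%. In 5 of 6 fisetin kidneys the share was 70.8% or more, above all 6 controls, and in fisetin 6 it was the lowest of the 12. Ednrb made up 66.8% to 78.2% of the sum of both receptors in fisetin kidneys, with a median of 68.8%, and 68.6% to 76.2% in control kidneys, with a median of 72.0%. The receptor shares of the groups overlapped along most of their range, with the highest value in fisetin 6.

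**Figure D4:**
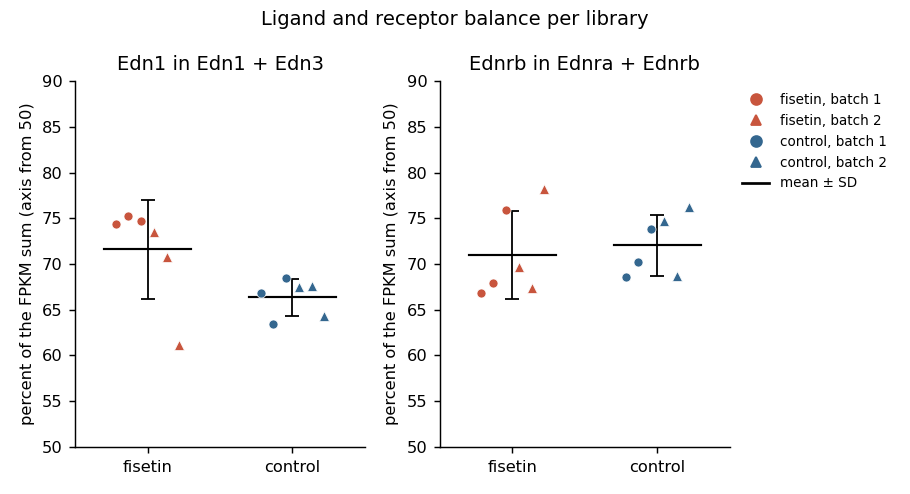
Share of Edn1 in the FPKM sum of Edn1 and Edn3 (left) and of Ednrb in the sum of Ednra and Ednrb (right), in percent on an axis from 50, per library, with fisetin (red) left of control diet (blue) and the mean ± SD of 6. For the ligands, 5 fisetin libraries lie between 70.8% and 75.2% and fisetin 6 at 61.1%, against 63.5% to 68.4% in the control libraries.

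The kidney cells in which these genes are mainly known to act gave the following values beside them. Endothelial markers summed to 751 to 1043 CPM with fisetin against 830 to 936 CPM with the control diet, with 0 of 12 past either test and 0 with an unadjusted p under 0.05. The endothelial cadherin gene Cdh5 was at 59.4 ± 5.83 CPM with fisetin and 61.8 ± 3.29 CPM in control kidneys (SD, n = 6 each). Markers of mesangial cells, smooth muscle and pericytes summed to 528 to 651 CPM against 540 to 715 CPM, again with 0 of 12 past either test. The pericyte receptor gene Pdgfrb was at 151.7 ± 14.8 CPM with fisetin and 152.5 ± 15.6 CPM with the control diet. Principal cell markers of the collecting duct summed to 302 to 635 CPM with fisetin against 554 to 799 CPM with the control diet, with 12 of 12 fold changes negative (49.8% of all genes) and a median of -0.47 log2. Of these 12, 9 were lower with an unadjusted p under 0.05 (6.34% of all genes), and 2 were called by DESeq2 (0.861% of all genes) and 0 by edgeR. The marker lists were chosen with earlier results of these data known, so these counts are a description and no independent test. The water channel gene Aqp2, not among the genes called, was at 94.3 ± 34.9 CPM with fisetin and 155.8 ± 26.3 CPM with the control diet. Its adjusted p was 0.290 by edgeR and 0.0928 by DESeq2. None of these markers was at 0 in all libraries. The part that principal cell, immune and proximal tubule marker levels have in the values of Edn3 and Ece1 was not tested.

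The wider pathway was read from lists of its other genes. Of the 10 further genes of endothelin peptides, processing and breakdown, 5 passed the filter, all 5 had negative fold changes (49.8% of all genes) with a median of -0.20 log2, and 0 passed by edgeR or DESeq2. Before adjustment p was under 0.05 for 2 of the 5, Furin and Pcsk5, both lower (6.34% of all genes). Furin, which makes the first cut in the precursor, was at 319 ± 34.2 CPM with fisetin and 365.6 ± 35.7 CPM in control kidneys (SD, n = 6 each). Its log2 difference was -0.20 ± 0.08 (SE). Pcsk5 and Pcsk6, relatives of furin, stood at -0.24 ± 0.11 and -0.39 ± 0.24. Mme was at 147.1 ± 5.04 CPM with fisetin and 153.4 ± 15.4 CPM with the control diet.

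Receptor coupling and signalling genes were split, with 17 of 32 fold changes positive and 15 negative (50.2% and 49.8% of all genes). Their median was 0.03 log2, with 0 past either test. Before adjustment p was under 0.05 for 9 of the 32 (6 higher, 3 lower), against 14.6% of all genes. Rgs4, which shortens signals through Gq, was at 5.94 ± 1.18 CPM in fisetin kidneys and 4.30 ± 0.973 CPM in control kidneys (SD, n = 6 each). Its log2 fold change was 0.47 ± 0.17 (SE; adjusted p = 0.297 by edgeR and 0.160 by DESeq2). Gnaq, the Gq subunit through which both receptors raise calcium, was at 83.0 ± 3.10 CPM with fisetin and 83.6 ± 2.80 CPM with the control diet.

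Of the nitric oxide arm of ETB, 4 of 10 tested genes had positive and 6 negative fold changes (50.2% and 49.8% of all genes). Their median was -0.03 log2, with 0 past either test. Before adjustment the edgeR p was under 0.05 for 2 of the 10, both higher (8.23% of all genes). Nos3, the endothelial synthase, ranged from 10.8 to 13.4 CPM in fisetin kidneys and from 10.9 to 14.8 CPM in control kidneys. Downstream of it, Gucy1a1, a subunit of the nitric oxide receptor, stood at 0.23 ± 0.09 log2 and Prkg1, the cGMP-dependent kinase, at 0.23 ± 0.10. The adjusted p of Gucy1a1 and Prkg1 were 0.303 and 0.337 by edgeR. Hsp90ab1, a chaperone that holds Nos3 active, stood at -0.10 ± 0.06.

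Genes reported to act on Edn1 were as evenly divided, with 15 of 27 positive and 12 negative (50.2% and 49.8% of all genes). Their median was 0.01 log2, with 0 past either test. Before adjustment the edgeR p was under 0.05 for 3 of the 27 (1 higher, 2 lower), against 14.6% of all genes. The clock genes Per2 (0.26 ± 0.10 log2) and Arntl (-0.22 ± 0.08) and the endothelial factor Gata2 (-0.28 ± 0.13) had the smallest p. Their adjusted p were 0.303, 0.303 and 0.334 by edgeR. Per1, a clock gene reported to repress Edn1 in the mouse collecting duct, was at 21.4 ± 2.61 CPM with fisetin and 19.9 ± 3.21 CPM with the control diet. Hif1a, of the hypoxia response, was at 129.8 ± 6.32 CPM with fisetin and 124.9 ± 6.78 CPM with the control diet.

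**Figure D5:**
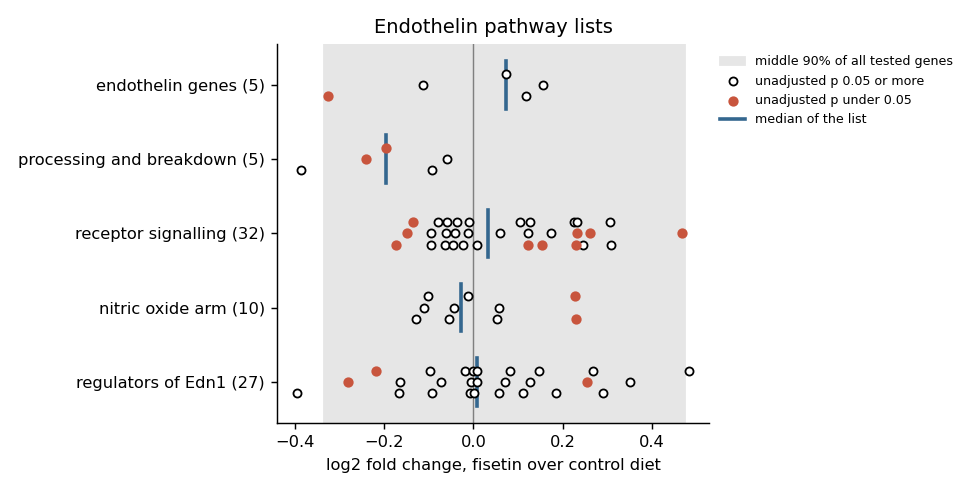
Log2 fold change, fisetin over control diet, of the 5 endothelin genes and of the tested genes in each pathway list (number in brackets); filled points have an unadjusted p under 0.05, blue bars are list medians and the grey band holds the middle 90% of all tested genes, from -0.34 to 0.48. The list medians lie between -0.20 and 0.07, and no point passed after adjustment over all genes.

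The 5 genes did not vary together across kidneys by any test that passed. Of 10 pairs, compared on log2 CPM centred within batch over 12 libraries, 0 passed a permutation test within batches (100000 resamples, two-sided, adjusted over 10 pairs). By Pearson r the strongest was Edn1 with Ednrb, with r = -0.61 (permutation p = 0.0658, adjusted p = 0.496) and Spearman rho = -0.36 (permutation p = 0.275, adjusted p = 0.551). Without the 2 libraries farthest from the median of Edn1 r was 0.03. Centred within batch and diet it was -0.71 (permutation p = 0.0971, adjusted p = 0.275), and -0.64 without the 2 farthest. For Edn1 with Ece1 r was -0.52 (permutation p = 0.140, adjusted p = 0.496) and rho -0.69 (permutation p = 0.0246, adjusted p = 0.246). That rho was the strongest by Spearman, and on log2(FPKM + 1) the r of the pair was 0.22, of the other sign. On that scale the strongest pair was Edn3 with Ednrb, with r = -0.68 (permutation p = 0.0268, adjusted p = 0.268) and rho = -0.62 (permutation p = 0.0390, adjusted p = 0.268). The ligands Edn1 and Edn3 had r = 0.18 (permutation p = 0.557, adjusted p = 0.669) and rho = 0.04 (permutation p = 0.903, adjusted p = 0.903), and the receptors r = -0.15 (permutation p = 0.669, adjusted p = 0.669) and rho = -0.08 (permutation p = 0.807, adjusted p = 0.897).

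The genes whose pattern was most like each of them were found by Pearson r of log2 CPM centred within batch, over the 12 libraries and 16510 genes with a mean of at least 0 log2 CPM. These values are a description, since the highest of so many are picked and genes of 1 library share its depth and makeup. Edn1 was most like Zbtb21, a zinc finger gene (r = 0.98), S100a10 of the annexin-binding S100 family (0.96) and Tsc22d1 (0.95). Without the 2 libraries farthest from the median of Edn1, these were 0.93, 0.87 and 0.89. Edn3 was most like the forkhead gene Foxs1 (0.89), Dio2, the thyroid hormone activating deiodinase (0.86), and Fam71e1 (0.83). Centred within batch and diet, these were 0.80, 0.75 and 0.70. Without the 2 libraries farthest from the median of Edn3, they were 0.84, 0.62 and 0.69. Ednra was most like Jam2, a junctional adhesion molecule gene (0.93), Zfp808 (0.89) and Gm37465 (0.88). Ednrb was most like Ier3ip1 (0.96), Rhot1, which tethers mitochondria to motor proteins (0.94), and Htatip2 (0.93). Ece1 was most like Lrp3 (0.96), the homeobox gene Hoxa10 (0.95) and Clstn1 (0.93). With the 2 farthest libraries of each member left out, r was 0.82 to 0.90 for the genes beside Ednra. For those beside Ednrb and beside Ece1 it was 0.87 to 0.90. No member was among the 3 genes most like another.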

How the data were processed

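Tools in the submitters' processing notes are DESeq2, featureCounts, STAR and fastp, with mm10 and GRCm38 as builds; their versions and the strand setting are not stated in these sources. Each library has FPKM, TPM and estimated count columns in the deposited table, per the file headers. Estimated counts carry no depth scaling; rounding was applied because 13.91% of the nonzero deposited counts had a fractional part. TPM and FPKM were scaled for length and depth by the authors. Names tied all 36 columns to samples. Copied libraries were looked for and none was found (66 pairs over 16472 genes, mean squared difference 7.0 to 104.8 times counting noise).

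Diet came from the titles and batch from the batch field; library numbers follow accession order and pair nothing. Genes passing filterByExpr (minimum count 10) were scaled with TMM and tested in R 4.3.3 with edgeR 4.0.16 (glmQLFit, robust, and glmQLFTest, two-sided; terms batch and diet; Benjamini-Hochberg adjustment over 17890 genes, threshold 0.05). Alternatives were DESeq2 1.42.0, limma 3.58.1 (voom with quality weights; log2(FPKM + 1) and log2(FPKM + 0.1)), other scalings, no filter, no batch term, single batches and leaving out each library. CPM are TMM-scaled; the Col4a5 check used plain totals. Standard errors come from the fold change and F statistic. Log2 CPM used a prior count of 2. The edgeR step was tested on simulated counts. GENCODE M21 on GRCm38 matched 55141 of 55487 identifiers. Genes, pathway lists and marker lists were chosen with earlier results of these data known. Named in each pathway list were the 3 genes with the smallest p (mean at least 0 log2 CPM), of which the 2 with the smallest p in the signalling list are not reported here; Mme, Gnaq, Nos3, Per1 and Hif1a and the genes below the filter were added after their values were seen. Counting intervals cover counting error only.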

Additional observations from a re-analysis of the deposited data

Results flagged for a closer look

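The share of Edn1 in the FPKM sum of Edn1 and Edn3 was 61.1% in the library fisetin 6, far below the 70.8% to 75.2% of the other 5 fisetin kidneys, and its gap to the nearest of them exceeded Dixon's 95% critical value. Of 14 groups looked at in this way (5 genes and 2 shares in each diet), this was the single one set apart, and chance sets apart about 1 in 20. The same library had the lowest Edn1 (5.78 CPM), the highest Ednrb (40.4 CPM) and the lowest sum of immune markers (342 CPM), and their part in the share was not tested.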

How the results depend on the processing

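No paired analysis was possible because the labels give no replicate numbers. The count of genes past the threshold for diet was 0, but 154 by DESeq2, 2390 by limma-voom with quality weights, 1 in batch 1 alone, and 0 to 70 without each library in turn (1 without fisetin 4 and 70 without fisetin 6, 0 without each other). Under the other alternatives it was 0. The interaction count was 1 by DESeq2, and 0 without each library. The diet fold changes of Edn3, Ednra, Ednrb and Ece1 kept their sign in 22 of 22 alternatives and that of Edn1 in 21, the exception being -0.087 in batch 2 alone; none passed in any. Interaction values changed sign for Edn1 by limma-voom (0.032), for Ece1 on log2(FPKM + 1) and log2(FPKM + 0.1) (0.081 and 0.084), and without single libraries for Edn3 (-0.11 to 0.21), Ednra (-0.085 to 0.20), Ednrb (-0.11 to 0.23) and Ece1 (-0.11 to 0.044). Batch differences did so without single libraries for Ednrb (-0.040 to 0.11) and Ece1 (-0.054 to 0.0040). Correlations changed sign for Edn3 with Ednra (0.20) and Edn3 with Ece1 (-0.42) centred within batch and diet, and on log2(FPKM + 1) for Edn1 with Ece1 (0.22), Edn3 with Ednra (0.069), Ednra with Ece1 (0.44) and Ednrb with Ece1 (-0.41). Total count scaling moved the median of all genes to 0.05 log2. The causes were not tested. Edn3 had the fewest counts of the 5 genes, 85 to 152 a library.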

Other observations

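Other marker lists give the makeup of the same kidneys. Over all tested genes, 50.2% of fold changes were positive and 49.8% negative. Fibroblast and myofibroblast markers, 5 of 10 with positive fold changes, summed to 1800 to 2824 CPM with fisetin and 1925 to 2966 CPM with the control diet. Podocyte markers, 6 of 8 negative, summed to 584 to 883 CPM with fisetin and 690 to 812 CPM with the control diet. Thick ascending limb and distal tubule markers, 7 of 8 negative, summed to 2961 to 5547 CPM with fisetin and 3257 to 6017 CPM with the control diet. Intercalated cell markers, 5 of 8 negative, summed to 137.9 to 286.4 CPM with fisetin and 179.1 to 255.7 CPM with the control diet. Urothelial markers, 6 of 8 negative, summed to 28.1 to 61.1 CPM with fisetin and 36.8 to 68.3 CPM with the control diet. Adipocyte markers, 5 of 5 tested positive, summed to 27.7 to 376.8 CPM with fisetin and 28.7 to 281.0 CPM with the control diet. Adrenal markers, 1 of 9 tested, summed to at most 2.73 CPM, with Cyp11b2, Pnmt and Chga at 0 in all libraries. None of these lists had a member past the threshold by edgeR or DESeq2.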
